A study of Mus musculus with 8 samples.

Results

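The genes described here are 10 dual-specificity MAP kinase phosphatases (Dusp1, Dusp2, Dusp4, Dusp5, Dusp6, Dusp7, Dusp8, Dusp10, Dusp14 and Dusp16), of 18193 genes with a named probe set. They were taken by gene symbol from the platform annotation, and all 16 probe sets that it gives to them were kept, of 45037 tested. A probe set is the group of short probes whose signals are summarised into 1 value per array. Dusp7 and Dusp8 have 3 probe sets each, Dusp10 and Dusp16 have 2 each, and the other genes have 1 each. RNA was taken from the striatum of 4 R6/2 mice (numbers 64, 65, 70 and 78) and 4 wild-type mice (numbers 42, 48, 54 and 63), with 1 Affymetrix array per mouse. All 8 animals were females of 12 weeks (85 days) on a C57Bl/6 and CBA background. The R6/2 line models Huntington's disease through a transgene that holds a fragment of human huntingtin with a lengthened CAG repeat, driven by the human promoter. Of 5 wild-type mice in the series' design, 4 were analysed here.

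MAP kinases are switched on by phosphorylation of a threonine and a tyrosine in their activation loop, and dual-specificity phosphatases remove both phosphates. Several of the phosphatase genes are themselves transcribed in response to MAP kinase signalling, so that they act as negative feedback. Dusp1, Dusp2, Dusp4 and Dusp5 encode inducible nuclear enzymes, Dusp6 and Dusp7 encode cytoplasmic enzymes that act on ERK, and Dusp8, Dusp10 and Dusp16 encode enzymes that act mainly on JNK and p38. Dusp14 encodes a small enzyme that lacks the kinase-binding domain of the others. In the striatum, ERK is activated by dopamine and glutamate inputs to medium spiny neurons, the main cell type of the region.

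In R6/2 striatum, Dusp1 was 1.81-fold lower and Dusp14 was 1.69-fold lower, and 1 of 3 Dusp7 probe sets was 1.44-fold lower. The other 13 probe sets did not pass the test. Values are log2 expression, a difference is R6/2 minus wild-type, and a probe set was called at an adjusted p under 0.05 in limma with Benjamini-Hochberg adjustment over all 45037 probe sets. Of the 16 probe sets, 3 were called lower and 0 higher, while 4.59% of all probe sets were called lower and 5.54% higher. With limma at an unadjusted p under 0.05, and 1 probe set per gene, 3 of the 10 genes were lower and 1 was higher, beside 12.3% of all 18193 genes lower and 17.3% higher. In whole tissue, fewer cells of a type and less RNA per cell cannot be told apart.

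Stretches of promoter are shown for the 3 genes with a called probe set, and for Dusp8 and Dusp5, which were not called and hold most of the motif matches in the family. Each is the 250 bases before the gene's start in RefSeq (GRCm38.p6), 5′ to 3′ on the gene's strand, and 9 of the 10 genes matched the RefSeq promoter table. Dusp4 had no entry. Capitals mark matches on either strand to the cyclic AMP response element TGACGTCA, bound by CREB, to its core TGACG, and to the CArG box, bound by serum response factor. Both factors act downstream of neuronal activity. Matches are of letters only and are not measured sites.
Dusp1 (chr17:26508473-26508722, minus strand): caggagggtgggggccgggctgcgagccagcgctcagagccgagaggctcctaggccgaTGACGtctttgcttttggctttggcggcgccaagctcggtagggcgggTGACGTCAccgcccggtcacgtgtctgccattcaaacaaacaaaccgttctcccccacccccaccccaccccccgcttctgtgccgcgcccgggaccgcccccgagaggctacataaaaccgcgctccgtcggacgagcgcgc
Dusp14 (chr11:84068358-84068607, minus strand): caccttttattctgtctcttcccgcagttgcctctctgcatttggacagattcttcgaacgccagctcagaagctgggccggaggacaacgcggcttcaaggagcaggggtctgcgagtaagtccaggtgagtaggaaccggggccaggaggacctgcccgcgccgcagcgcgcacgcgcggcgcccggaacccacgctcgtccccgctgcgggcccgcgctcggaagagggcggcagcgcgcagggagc
Dusp7 (chr9:106368382-106368631, plus strand): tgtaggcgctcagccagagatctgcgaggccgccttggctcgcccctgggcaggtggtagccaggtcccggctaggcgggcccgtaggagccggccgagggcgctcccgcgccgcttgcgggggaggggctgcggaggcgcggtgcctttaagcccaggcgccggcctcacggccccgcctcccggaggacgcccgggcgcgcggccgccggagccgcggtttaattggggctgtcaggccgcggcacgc
Dusp8 (chr7:142095285-142095534, minus strand): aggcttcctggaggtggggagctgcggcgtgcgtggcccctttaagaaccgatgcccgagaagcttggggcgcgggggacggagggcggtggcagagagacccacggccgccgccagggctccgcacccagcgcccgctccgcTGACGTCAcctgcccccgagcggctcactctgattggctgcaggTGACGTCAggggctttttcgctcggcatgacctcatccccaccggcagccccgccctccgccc
Dusp5 (chr19:53528895-53529144, plus strand): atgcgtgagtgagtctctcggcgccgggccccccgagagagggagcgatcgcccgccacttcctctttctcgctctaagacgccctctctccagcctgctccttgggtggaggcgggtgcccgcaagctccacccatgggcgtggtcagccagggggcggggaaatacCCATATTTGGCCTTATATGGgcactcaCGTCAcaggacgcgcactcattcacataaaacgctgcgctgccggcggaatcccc

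The Dusp1 stretch holds 1 full element and 1 further core, and the Dusp8 stretch holds 2 full elements. Dusp5 holds 1 core and 2 adjoining CArG boxes, and Dusp16, which is not printed, holds 1 core. No match to any of the 3 motifs lies in the 250 bases of Dusp14, Dusp7, Dusp2, Dusp6 or Dusp10. Among 32851 such stretches in the RefSeq table, 1.55% hold the full element, 17.8% hold the core and 1.47% hold a CArG box. Each full element also counts as a core. Both genes with full elements are measured well above the dim end of the array, and their values differ: Dusp1 was lower in all 4 R6/2 mice, as given next, while none of the Dusp8 probe sets passed.

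Dusp1, an early-response phosphatase of p38, JNK and ERK in the nucleus, had 8.56, 8.24, 8.30 and 8.10 (log2) in R6/2 mice 64, 65, 70 and 78, against 9.34, 8.97, 8.94 and 9.39 in wild-type mice 42, 48, 54 and 63. The groups did not overlap, and the highest R6/2 mouse lay below the lowest wild-type mouse. The means were 8.30 ± 0.20 in R6/2 and 9.16 ± 0.24 in wild-type mice (SD, n = 4 each), a difference of -0.86 ± 0.13 (log2, SE, limma adjusted p = 0.00413). The call held in all 16 alternatives tried, with adjusted p between 0.00143 and 0.0426. Groups that do not overlap were found for 3 of the 16 Dusp probe sets, all lower in R6/2 mice, and for 7.07% of all probe sets in that direction.

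The other nuclear enzymes did not pass, and Dusp2 and Dusp4 were dim. Dusp2 had 4.30, 4.13, 4.08 and 4.39 in R6/2 mice (64, 65, 70 and 78) and 4.34, 4.35, 4.51 and 4.39 in wild-type mice (42, 48, 54 and 63), a difference of -0.17 ± 0.087 (log2, SE, adjusted p = 0.257). Of the R6/2 mice, 3 lay below all wild-type mice and mouse 78 did not. Dusp4 lay between 3.62 and 3.94 over all 8 mice (difference -0.037 ± 0.086, adjusted p = 0.837). Dusp5, which acts on ERK in the nucleus, lay between 5.73 and 5.98 (difference 0.078 ± 0.072, adjusted p = 0.553). As a guide to background, 12 probe sets of Y-linked genes in these female mice lay between 2.77 and 4.83 with a median of 3.19. The highest belonged to Zfy2, and no other exceeded 3.71. Of the Dusp probe sets, 5 had means at or below 4.83, those of Dusp4 and Dusp2 among them. RMA values compress differences at that end, so a small change of these 2 genes may not be seen.

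**Figure D1:**
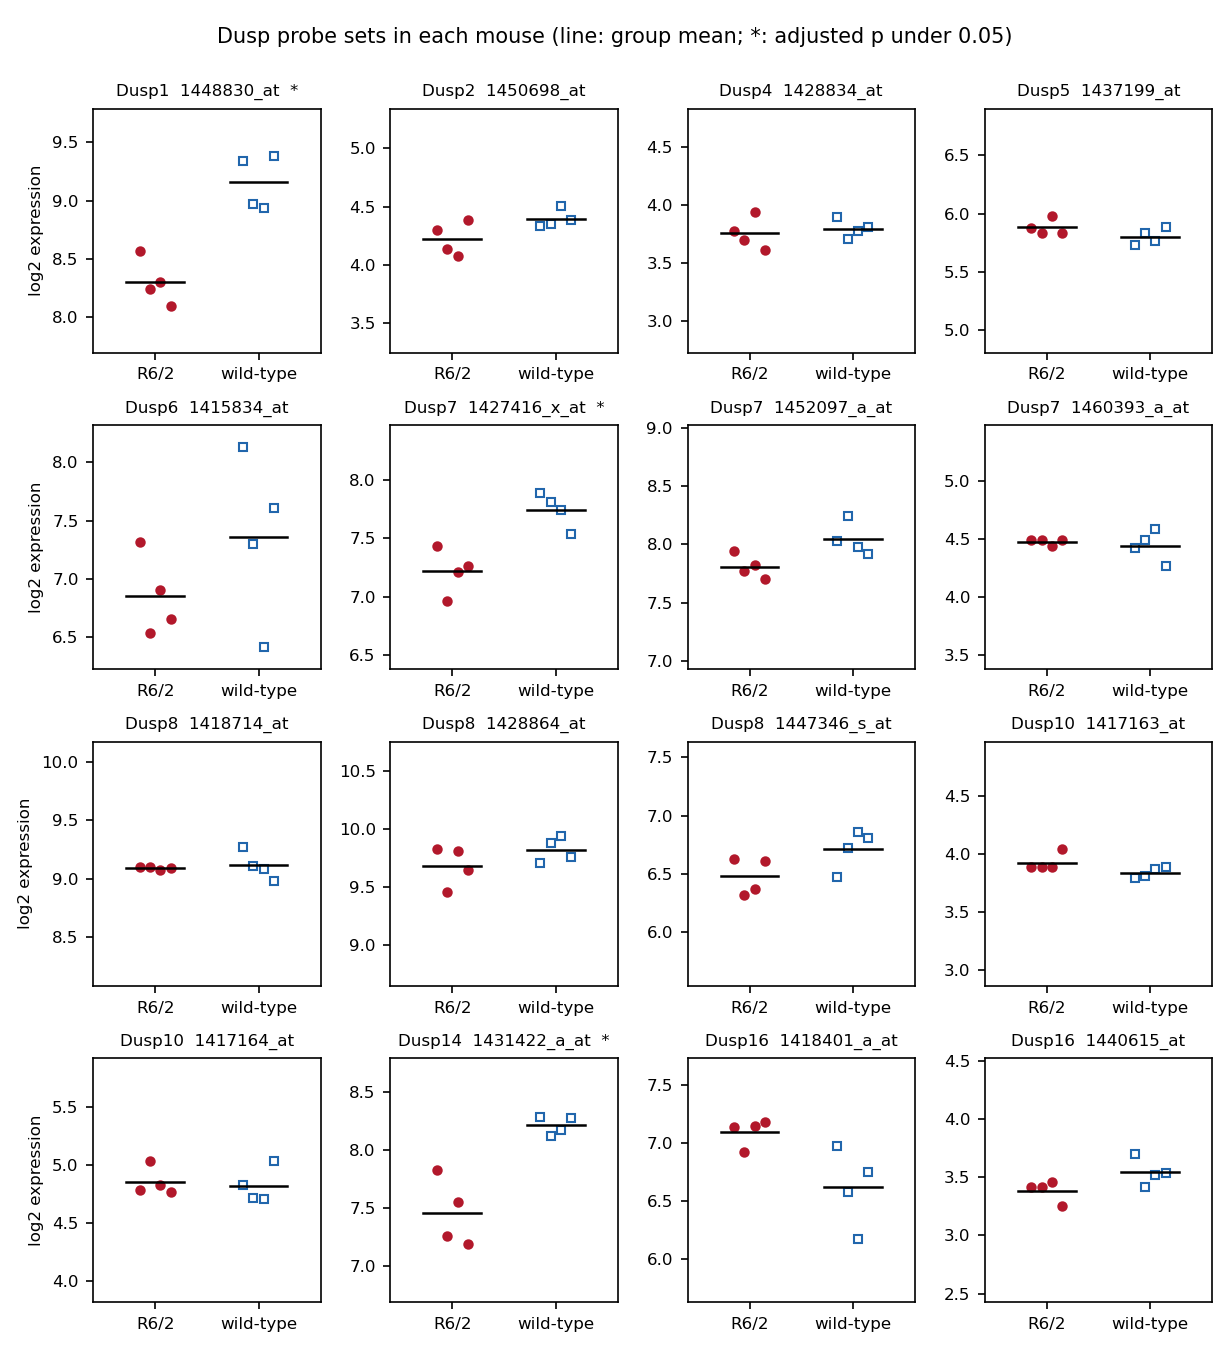
Expression of the 16 Dusp probe sets in each mouse (y axis, log2; every panel spans the same log2 range), with R6/2 mice as filled circles, wild-type mice as open squares, group means as lines and called probe sets starred. Dusp1, Dusp14 and 1 Dusp7 probe set show groups that do not overlap, while Dusp6 spreads from 6.41 to 8.13 among wild-type mice.

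Dusp6, the cytoplasmic ERK phosphatase that is a standard readout of ERK signalling, varied more between mice than almost any other probe set. It had 7.31, 6.53, 6.90 and 6.66 (log2) in R6/2 mice 64, 65, 70 and 78, against 8.13, 7.30, 6.41 and 7.61 in wild-type mice 42, 48, 54 and 63. The groups overlapped: wild-type mouse 54 was the lowest of all 8, and R6/2 mouse 64 reached the level of wild-type mouse 48. The spread within groups, pooled over both, ranked at the 99.3rd percentile of all probe sets. The difference was -0.51 ± 0.31 (log2, SE, adjusted p = 0.354), with a 95% interval from -1.21 to 0.18, so a fall of more than 2-fold and a small rise both lie within it. Without wild-type mouse 54 it was -0.83 ± 0.22 (adjusted p = 0.0571).

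The 3 probe sets of Dusp7, the other cytoplasmic ERK phosphatase, differed in outcome: the brighter ones both had negative differences, and only 1427416_x_at was called. Probe set 1427416_x_at had 7.44, 6.96, 7.21 and 7.26 (log2) in R6/2 mice (64, 65, 70 and 78) and 7.89, 7.81, 7.74 and 7.54 in wild-type mice (42, 48, 54 and 63), without overlap, and differed by -0.53 ± 0.11 (SE, limma adjusted p = 0.0169). Its ending marks probes that can also match transcripts of other genes, and the call was lost without wild-type mouse 48 (adjusted p = 0.0530), without variance moderation (0.0772) and with the cortical covariate described further on (0.156). Probe set 1452097_a_at had 7.95, 7.77, 7.82 and 7.71 in R6/2 mice and 8.03, 8.25, 7.98 and 7.91 in wild-type mice, with R6/2 mouse 64 inside the wild-type range, and differed by -0.23 ± 0.091 (adjusted p = 0.140). The remaining one, 1460393_a_at, was dim, between 4.27 and 4.59 (difference 0.035 ± 0.080, adjusted p = 0.835).

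The gap between the brighter Dusp7 probe sets is given as a description. The value of 1427416_x_at minus that of 1452097_a_at was -0.59 ± 0.16 in R6/2 and -0.30 ± 0.13 in wild-type mice (log2, SD, n = 4 each), a difference of -0.29. No test is given for it, since the first probe set was picked by its own call. The dim probe set 1460393_a_at lies within the range of the Y-linked values, where a fall may not be seen. The probe set of highest signal, which stands for the gene in the gene counts, did not pass.

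Among the JNK and p38 phosphatases no probe set passed. Dusp8, which acts on JNK and p38, had 9.83, 9.46, 9.81 and 9.65 (log2) in R6/2 mice and 9.71, 9.88, 9.94 and 9.76 in wild-type mice on 1428864_at (difference -0.14 ± 0.098, adjusted p = 0.432). On 1418714_at the R6/2 mice lay between 9.08 and 9.10 and the wild-type mice between 8.98 and 9.27 (difference -0.022 ± 0.076, adjusted p = 0.893), and on 1447346_s_at the difference was -0.23 ± 0.11 (adjusted p = 0.216). The 95% intervals on 1428864_at and 1418714_at, -0.36 to 0.081 and -0.19 to 0.15, leave out a fall as large as that of Dusp1. Dusp10 was dim on 1417163_at, between 3.79 and 4.04 (difference 0.086 ± 0.069, limma adjusted p = 0.491). On 1417164_at it lay between 4.70 and 5.03, around the highest Y-linked value of 4.83 (difference 0.032 ± 0.096, limma adjusted p = 0.878).

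Dusp16 was the member with the largest positive difference. On 1418401_a_at it had 7.13, 6.92, 7.15 and 7.18 (log2) in R6/2 mice 64, 65, 70 and 78, against 6.97, 6.58, 6.18 and 6.75 in wild-type mice 42, 48, 54 and 63. Of the R6/2 mice, 3 lay above all wild-type mice, and wild-type mouse 42 lay above R6/2 mouse 65. The difference was 0.48 ± 0.15 (SE, limma adjusted p = 0.0725), and it was past the threshold without wild-type mouse 42 (0.59, adjusted p = 0.0261), with array weights (0.57, adjusted p = 0.0176) and with the cortical covariate (0.75, adjusted p = 0.0329). It was smaller without wild-type mouse 54 (0.33, adjusted p = 0.110) and had an adjusted p of 0.194 without variance moderation. As the mean of both Dusp16 probe sets, at gene level, it was 0.16 (adjusted p = 0.315). A second Dusp16 probe set, dim at 3.25 to 3.70, differed by -0.16 ± 0.083 (adjusted p = 0.274).

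Dusp14 had 7.82, 7.26, 7.55 and 7.19 (log2) in R6/2 mice 64, 65, 70 and 78, against 8.28, 8.11, 8.17 and 8.28 in wild-type mice 42, 48, 54 and 63. All R6/2 mice lay below all wild-type mice, and the R6/2 mice were spread more widely. The means were 7.46 ± 0.29 in R6/2 and 8.21 ± 0.083 in wild-type mice (SD, n = 4 each), a difference of -0.75 ± 0.13 (SE, limma adjusted p = 0.00681). The call was lost without variance moderation (adjusted p = 0.0543) and with the cortical covariate (-0.52 ± 0.13, adjusted p = 0.0676), and it held in the 14 other alternatives.

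**Figure D2:**
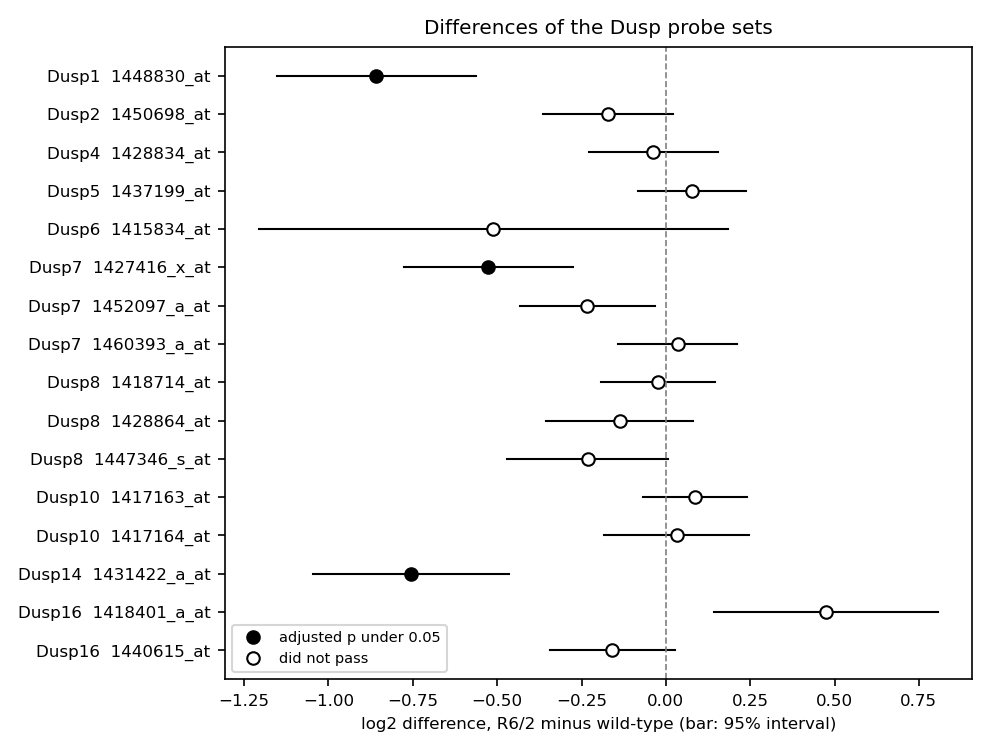
Log2 difference of each Dusp probe set, R6/2 minus wild-type (x axis), with its 95% interval from limma; filled points passed an adjusted p of 0.05. The interval of Dusp6 is the widest of the 16, and those of Dusp1, Dusp14 and the called Dusp7 probe set lie wholly below 0.

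The arrays differed in their level of cortical projection neuron markers. A score was taken on each array as the mean over 13 measured markers of cortical projection neurons of their log2 values, less the average of the wild-type arrays. It was -0.05, -1.0, -0.54 and -0.88 (log2) in R6/2 mice 64, 65, 70 and 78, against 0.29, 0.10, -0.62 and 0.23 in wild-type mice 42, 48, 54 and 63. The groups overlapped (exact 2-sided permutation p = 0.0857, and 0.150 adjusted over the 7 marker lists). Of the 13 markers, 2 were called lower in R6/2 mice in limma: Slc30a3 (-0.67, adjusted p = 0.00599) and Rtn4rl2 (-0.79, adjusted p = 0.0417). Slc17a7, which loads glutamate into the vesicles of cortical neurons, lay between 5.08 and 7.64 in R6/2 and between 5.80 and 8.66 in wild-type mice.

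Dusp6 followed this score in both genotypes: the order of its values was the order of the scores within the 4 R6/2 mice and also within the 4 wild-type mice. Dusp1 and Dusp14 had nearly that order, with R6/2 mice 65 and 78 changing places for both. Among wild-type mice, 42 and 63 changed places for Dusp1, and 48 and 54 for Dusp14. Wild-type mouse 54 and R6/2 mouse 70 had like scores, and in that pair R6/2 mouse 70 had more Dusp6 (6.90, against 6.41) and more Dusp16 (7.15, against 6.18), but less Dusp1 (8.30, against 8.94) and less Dusp14 (7.55, against 8.17). In R6/2 mouse 64 and wild-type mouse 48, whose scores lay near 0, Dusp6 was at 7.31 and 7.30, Dusp1 at 8.56 and 8.97, and Dusp14 at 7.82 and 8.11. With 4 mice per genotype, no correlation with the score was computed.

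With the score as a covariate, the Dusp6 difference was 0.24 ± 0.20 (log2, SE, adjusted p = 0.590), against -0.51 ± 0.31 without it, so its sign turned and its error shrank. The Dusp1 difference was -0.60 ± 0.13 (limma adjusted p = 0.0377) and remained called. In that fit 1 Dusp probe set was called lower, that of Dusp1, and 1 higher, that of Dusp16, and fewer probe sets were called overall (857 lower and 897 higher, against 2069 and 2497). By gene, Dusp1 and Dusp14 were called lower with the covariate, and Dusp16 was called higher. The score itself differed by -0.62 (log2, R6/2 minus wild-type), so this fit cannot fully part it from genotype. Within the wild-type mice, Dusp16 had the same order as the score, from mouse 54 at 6.18 to mouse 42 at 6.97, while the R6/2 mice stayed between 6.92 and 7.18.

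**Figure D3:**
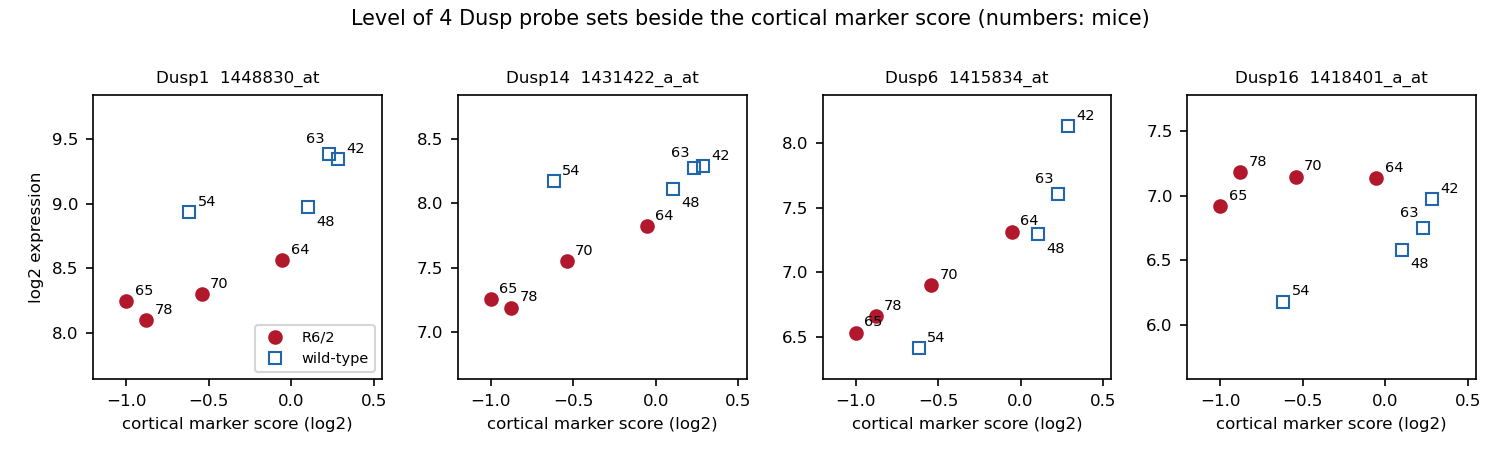
Log2 expression of Dusp1, Dusp14, Dusp6 and Dusp16 (y axis, the same span in each panel) against the cortical marker score of each array (x axis, log2), with mice numbered, R6/2 as filled circles and wild-type as open squares. Wild-type mouse 54, at a score of -0.62, lies above R6/2 mouse 70 for Dusp1 and Dusp14 and below it for Dusp6 and Dusp16.

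Other features of the arrays were as follows. Array medians lay between 5.08 and 5.13, and correlations between arrays between 0.983 and 0.994. All 8 measured markers of medium spiny neurons were bright, with means of 9.22 to 11.76 in R6/2 and 10.19 to 12.51 in wild-type mice, and 7 of them were called lower in R6/2. The list scores did not overlap between genotypes for medium spiny neuron (-0.95 in R6/2 against 0 in wild-type), astrocyte (-0.28 in R6/2 against 0 in wild-type) and endothelial markers (-0.31 against 0), each with an exact 2-sided permutation p of 0.0286 and 0.0667 adjusted over the 7 lists. Oligodendrocyte (7 markers), microglia (8) and choroid plexus and ependyma markers (7) overlapped, with adjusted exact permutation p of 0.32, 0.86 and 0.40. The part of these cell types in the Dusp values was not tested.

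The genes most alike to the 2 called members over the 8 arrays, by Pearson's r between the probe sets of highest signal, included immediate early genes. For Dusp1 they were Lcat, which encodes an enzyme of cholesterol esterification (r = 0.992), the zinc finger transcription factor gene Egr2 (0.981) and the synaptic regulator gene Arc (0.978). For Dusp14 they were Igsf21, an immunoglobulin superfamily gene (0.975), the transcription factor gene Egr1 (0.974) and the kinase gene Camk1g (0.970). All 6 were called lower in R6/2 mice in limma (adjusted p between 0.000334 and 0.00913), so part of each r is the difference between genotypes. With the group means removed, r was 0.956 for Lcat, 0.882 for Egr2 and 0.878 for Arc with Dusp1, and 0.878, 0.881 and 0.871 for Igsf21, Egr1 and Camk1g with Dusp14. These r describe 8 arrays, 1 per mouse, that also differ in the cortical score. The 6 genes were picked for their high r on these same arrays, which also favours a high r with the group means removed.

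Dusp1 belongs to the immediate early genes, whose transcription starts soon after a neuron is active. Of 19 such genes other than the phosphatases, 9 were called lower and 1 higher, with a median difference of -0.64, beside -0.0034 over all 18193 genes. At 1 probe set per gene, 6.19% of all genes were called lower and 9.09% higher. Under the 17 alternatives at gene level, 6 to 13 of the 19 genes were called lower. The count was 6 both with the cortical covariate and without variance moderation. Egr2 (-2.38 ± 0.25, log2, SE), Npas4 (-2.09 ± 0.24) and Homer1 (-0.80 ± 0.11) had the smallest limma adjusted p of the list, between 0.000334 and 0.00112. The 10 Dusp genes had 2 called lower, 0 higher and 8 not passed, with a median of -0.15. In 2 of the 17 alternatives at gene level 1 more Dusp gene was called lower: Dusp7 with array weights (adjusted p = 0.0439) and Dusp6 without wild-type mouse 54 (adjusted p = 0.0379).

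Upstream of the phosphatases, the core of the kinase cascade had no called gene. None of 9 measured Ras, RAF, MEK and ERK genes and none of 6 p38 branch genes passed in limma, and at an unadjusted p under 0.05 there was 1 higher in the first list and 1 lower in the second, while 12.3% of all genes were lower and 17.3% higher at that threshold. Of 7 exchange factor genes, whose proteins load Ras or its relatives with GTP, 3 were lower and 1 was higher. This count and those of later lists are at an adjusted p under 0.05, unless an unadjusted p is named. At an adjusted p under 0.05, 6.19% of all genes were lower and 9.09% higher. Rasgrp2, a calcium-responsive exchange factor that acts mainly on Rap, differed by -1.47 ± 0.12 (log2, SE, adjusted p = 7.97e-05), Rasgrf2 by -0.85 ± 0.13 and Rasgrp1 by -0.56 ± 0.096, the last lost with the mean of all probe sets (-0.18, adjusted p = 0.423). Sos1, named after its values were seen, was higher by 0.32 ± 0.080 (adjusted p = 0.0222).

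The JNK branch had 1 of 7 genes higher, the scaffold gene Mapk8ip2 (0.35 ± 0.082, log2, SE, limma adjusted p = 0.0168). Of the ERK5 branch, Map2k5 was higher (0.24 ± 0.069, adjusted p = 0.0425) and the other gene did not pass. Among 12 MAP kinase kinase kinases, Map3k12 was lower (-0.36 ± 0.085, adjusted p = 0.0176) and Map3k7 higher (0.31 ± 0.083, adjusted p = 0.0303). The calls of Map2k5, Map3k7, Sos1, Map3k12 and Mapk8ip2 were lost in 11, 8, 5, 4 and 1 of 17 alternatives.

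Of 8 measured kinases that MAP kinases activate, Rps6ka6 was 2.10-fold higher, at 6.86 ± 0.043 in R6/2 and 5.79 ± 0.10 in wild-type mice (log2, SD, n = 4 each, limma adjusted p = 4.41e-05). Rps6ka5, the nuclear kinase MSK1 that phosphorylates CREB and histone H3, was 1.56-fold lower (8.21 ± 0.036 in R6/2 and 8.86 ± 0.25 in wild-type mice, adjusted p = 0.00453). Mknk2, a kinase of the translation factor eIF4E, differed by -0.29 ± 0.077 (adjusted p = 0.0315), a call lost in 10 of 17 alternatives.

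Of the other negative regulators, Spry2, a Sprouty inhibitor of receptor tyrosine kinase signalling, was lower (-0.59 ± 0.093, log2, SE, limma adjusted p = 0.00276), and the 6 other Sprouty and Spred genes did not pass. Ptpn5, which encodes the striatum-enriched tyrosine phosphatase STEP that acts on ERK and p38, had means of 10.37 ± 0.068 in R6/2 and 11.02 ± 0.20 in wild-type mice (SD, n = 4 each), 1.57-fold lower (adjusted p = 0.00242), and Ptprr did not pass. None of 16 other dual-specificity phosphatase genes passed in limma, and at an unadjusted p under 0.05, 2 were lower and 1 was higher, a share near or below that of all genes (12.3% lower and 17.3% higher). Over the 10 lists together, 8 of 76 genes were lower (10.5%) and 5 higher (6.58%), with a median of -0.056. These are counts at an adjusted p under 0.05, where 6.19% of all genes were lower and 9.09% higher. When probe sets of a gene were averaged in place of taking that of highest signal, differences were smaller for Rasgrp2 (-0.67), Rasgrf2 (-0.33), Rps6ka5 (-0.35), Rps6ka6 (0.56) and Spry2 (-0.33), and all 5 remained called.

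**Figure D4:**
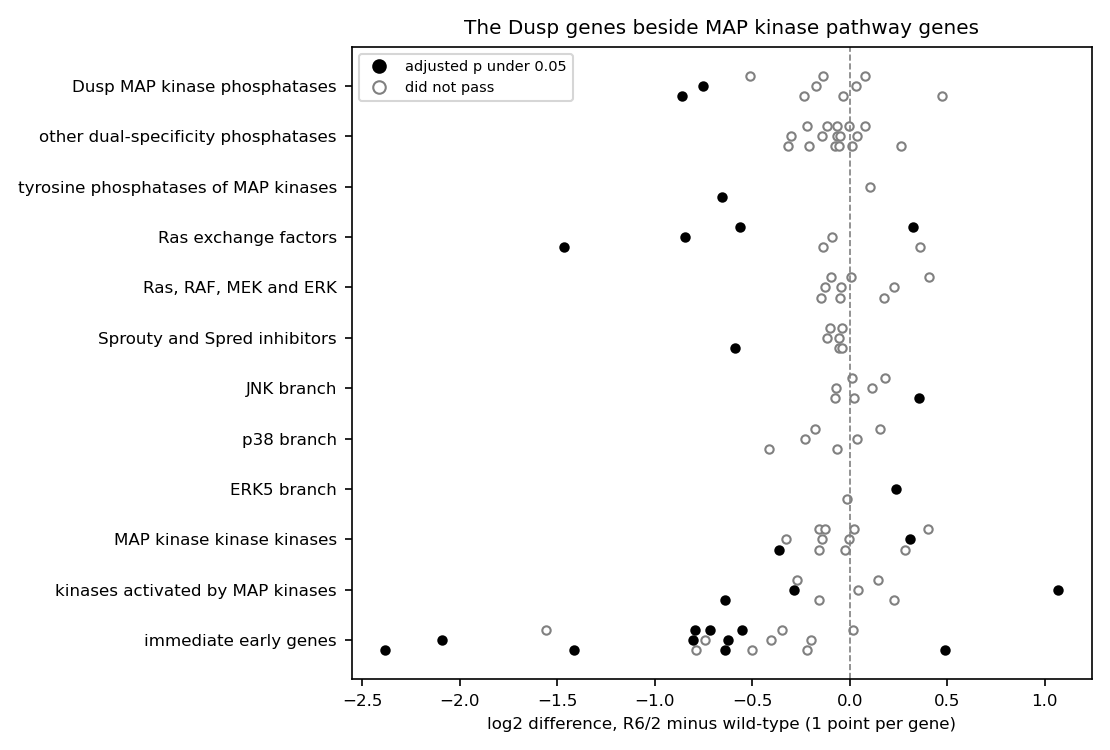
Log2 difference, R6/2 minus wild-type (x axis), of each gene on its probe set of highest signal, for the Dusp genes and the pathway lists; filled points passed an adjusted p of 0.05. Called genes of the MAP kinase lists range from -1.47 for Rasgrp2 to 1.07 for Rps6ka6, and the immediate early genes reach -2.38 for Egr2.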

How the data were processed

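Biotin-labelled total RNA of 8 striata was measured on 1 Affymetrix array each, per the labels' protocols. The submitters' processing notes name RMA and affy, without versions, and the authors deposited 1 log2 expression value per probe set and array. RMA corrects background, normalizes across arrays and combines the probes of a set, and it compresses differences between dim values. The set of arrays it was run on is not given in the sources used.

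After 64 control probe sets were left out, 45037 remained. The platform annotation gave 34945 of them 1 symbol, updated by Entrez ID to RefSeq symbols for 34741; 932 had several symbols and 9160 no entry, and these were not named. Groups came from sample titles, which number each mouse separately, so p-values measure the spread between animals. The genotypes were compared with limma 3.58.1 in R 4.3.3 (lmFit, eBayes with a constant prior), with Benjamini-Hochberg adjustment across all probe sets, or across 18193 genes at the probe set of highest mean. Errors of differences are moderated standard errors. No depth applies to arrays, and their number limits the precision.

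The members and lists were chosen with earlier results of these data known. Every Dusp probe set is accounted for; of each pathway list, up to 3 called genes of smallest adjusted p are named, and the 3 genes most alike to each called Dusp gene. The limma step was tested on simulated data. Alternatives were quantile normalization, centring on array medians, leaving out the dimmest 40%, no variance moderation, an intensity trend with robust moderation, leaving out probe sets whose names end in _s_at or _x_at, array weights, the cortical score as a covariate, the mean of a gene's probe sets and leaving out each array. Figures and motif searches used Python 3.11.15, and the figures matplotlib 3.10.9.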

Additional observations from a re-analysis of the deposited data

Results flagged for a closer look

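Within each group of 4 mice, each of the 16 Dusp probe sets was checked for 1 mouse far from the other 3 by Dixon's gap ratio at its 95% critical value. Of 32 such groups 2 were found, and chance gives about 1 in 20. On the Dusp7 probe set 1460393_a_at, R6/2 mouse 70 had 4.44 (log2) while the other R6/2 mice had 4.49 each, an identical value on all 3 arrays. On the Dusp10 probe set 1417163_at, R6/2 mouse 78 had 4.04 while the other R6/2 mice had 3.88 each, again identical. Both probe sets are dim, and neither passed the test between genotypes.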

How the results depend on the processing

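Of 249 values of Dusp probe set differences under the 16 alternatives, 231 kept their direction and their side of the threshold, 5 were no longer past it, 3 came past it and 10 changed sign. Called Dusp probe sets numbered 3 lower and 0 higher. They were 1 lower without moderation and 1 lower with the cortical covariate, and 2 to 3 lower without 1 array. A probe set was called higher (1) with array weights, with the cortical covariate and without wild-type mouse 42 (0 to 1 without 1 array). By gene, 1 was higher with those 3 settings, with the dimmest 40% left out and with an intensity trend and robust moderation (0 to 1 without 1 array). These calls are Dusp16.

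The values that changed sign were those of Dusp4 with quantile normalization (0.0012), array weights at gene level (0.0066) and the covariate (0.030), and without R6/2 mouse 78 (0.010, range -0.098 to 0.010 without 1 array); Dusp6 (0.24) and the dim Dusp7 probe set (-0.043) with the covariate; and that Dusp7 probe set without wild-type mouse 63 (-0.022, range -0.022 to 0.083). The Dusp10 probe set 1417164_at lay at -0.027 to 0.10 and Dusp8 on 1418714_at at -0.066 to 0.031 without 1 array. Dusp10 changed sign without R6/2 mouse 65 (-0.027) or wild-type mouse 48 (-0.0033) or 54 (-0.0071), and Dusp8 without wild-type mouse 42 (0.031). The microglia score was -0.024 and lay at -0.069 to 0.021 without 1 array.

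Genes of the 10 pathway lists called higher numbered 5. They were 9 with array weights, 3 with the covariate, 3 with the mean of a gene's probe sets, and 2 to 6 without 1 array (2 without R6/2 mouse 64 or 78 or wild-type mouse 48, 3 without R6/2 mouse 70 or wild-type mouse 63). Those called lower numbered 8, and 6 to 12 under the alternatives. The difference between Dusp7 probe sets was -0.34 to -0.22 against 1452097_a_at and -0.63 to -0.47 against 1460393_a_at without 1 array. No paired analysis was possible because the groups share no mouse numbers.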
